A study of Neurospora crassa with 12 samples.

Results

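The genes described here are the cellulases of Neurospora crassa and the transcription factors that govern them. They were taken by gene ID from the count table, as 9 of its 10592 genes. Of these, 5 encode secreted enzymes (cbh-1, gh6-2, gh5-1, gh3-4 and cdh-1) and 4 encode transcription factors (clr-1, clr-2, xlr-1 and cre-1). N. crassa is a filamentous fungus that feeds on burnt plant matter. Cellobiohydrolases release the disaccharide cellobiose from the ends of cellulose chains, endoglucanases cut within the chains, and beta-glucosidases split cellobiose into glucose. Cellobiose dehydrogenase oxidises cellobiose and passes electrons to the lytic polysaccharide monooxygenases (LPMOs), which cleave crystalline cellulose. When cellulose is the carbon source, the zinc cluster activators CLR-1 and CLR-2 switch the cellulase genes on, XLR-1 does the same for the genes of xylan breakdown, and the zinc finger repressor CRE-1 holds both sets down while preferred sugars are present.

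Transcripts were measured in conidia, the asexual spores, germinating on Bird medium at 37 °C under continuous white light. The study describes its cultures on this medium as supplied with simple sugar and no other carbon source, and names sucrose for the Bird medium of its light experiments. The sugar of the present cultures is not named in the sources used here. All 12 libraries came from the mat A wild-type strain FGSC2489, with no mutant or untreated arm, and fall into 4 stages of 3 libraries. Stage 1 is fresh spores, stage 2 the first polar growth, stage 3 the extension of the germ tube and stage 4 the start of hyphal branching. The times conflict: sample titles give 15, 60, 120 and 240 min after inoculation, which the study's methods also give for this culture, whereas the time tags give 15, 120, 240 and 360 min. The study's methods give the times of the tags for its cultures on potato dextrose agar. The source name also mentions that agar, where the growth protocol has Bird medium. The grouping is unaffected by which times hold. Each replicate was tissue from several plates taken in a single collection, so that the p-values measure the spread between such collections. Since each library is a bulk sample in which only most of the spores had reached the stage, fewer cells using a gene and less of its RNA per cell cannot be told apart.

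Total counts lay between 42996748 and 71990884 per library. Ribosomal RNA genes held between 1.68% and 37.9% of the counts, the highest share being in stage 3 replicate 2. Levels are given as CPM, counts per 1000000 counts of the library after scaling by TMM factors. These factors centre a trimmed mean of the changes between libraries and take most genes as unchanged. By the test below, 77.3% of the genes tested differed at stage 2 against stage 1. Changes are therefore relative to the other genes and not amounts of RNA per cell. Of the 10592 genes, 8330 passed the filter on low counts and were tested with edgeR's quasi-likelihood test, with p-values adjusted by the Benjamini-Hochberg method over all genes tested and a threshold of 0.05. The 4 markers of conidia (eas, which encodes the hydrophobin of the spore coat, con-6, con-8 and con-10) were checked against the stage labels. The eas level averaged 11117 CPM in stage 1, 58.5 CPM in stage 2, 5.25 CPM in stage 3 and 58.8 CPM in stage 4, and 4 of 4 markers fell at stage 2, fell again at stage 3 and were higher in stage 4 than in stage 3. The libraries of stage 4 could not be told from those of stage 2. Pairs of a stage 4 and a stage 2 library differed by a chi-square statistic of 12.1 to 34.2 per degree of freedom over genes. Replicate pairs differed by 28.7 to 37.3 within stage 4 and by 18.4 to 30.7 within stage 2. No count column was thus identical to another. The closest pairs across these stages, replicate 3 with 3 (12.1) and replicate 2 with 2 (17.4), differed less than any replicate pair within a stage. Whether these pairs share tissue or RNA was not tested, and the chi-square statistic cannot show it. Changes at stage 3 against its neighbours therefore appear as a departure at stage 3 and a return at stage 4, and the order of these stages rests on the labels.

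Of the 9 genes, 8 were tested, and gh3-4 fell below the filter. Across the 4 stages together, 7 of the 8 genes tested differed (edgeR adjusted p from 1.86e-12 to 0.00431), where 84.3% of all genes tested did. The exception was cbh-1, with an adjusted p of 0.665. The 4 transcription factors summed to 293 ± 1.88 CPM in stage 1, 104 ± 3.21 CPM in stage 2, 133 ± 5.13 CPM in stage 3 and 107 ± 1.41 CPM in stage 4 (SD, n = 3 each). The 5 enzymes together came to 10.6 ± 1.13 CPM in stage 1, 17.0 ± 0.917 CPM in stage 2, 20.7 ± 1.44 CPM in stage 3 and 16.7 ± 0.857 CPM in stage 4. The higher enzyme sum after stage 1 was mostly that of gh6-2 and cdh-1. Every library of stages 2 to 4 lay above every library of stage 1 in this sum, which lay between 15.7 and 22.3 CPM in stages 2 to 4, against 9.64 to 11.9 CPM in stage 1.

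**Figure D1:**
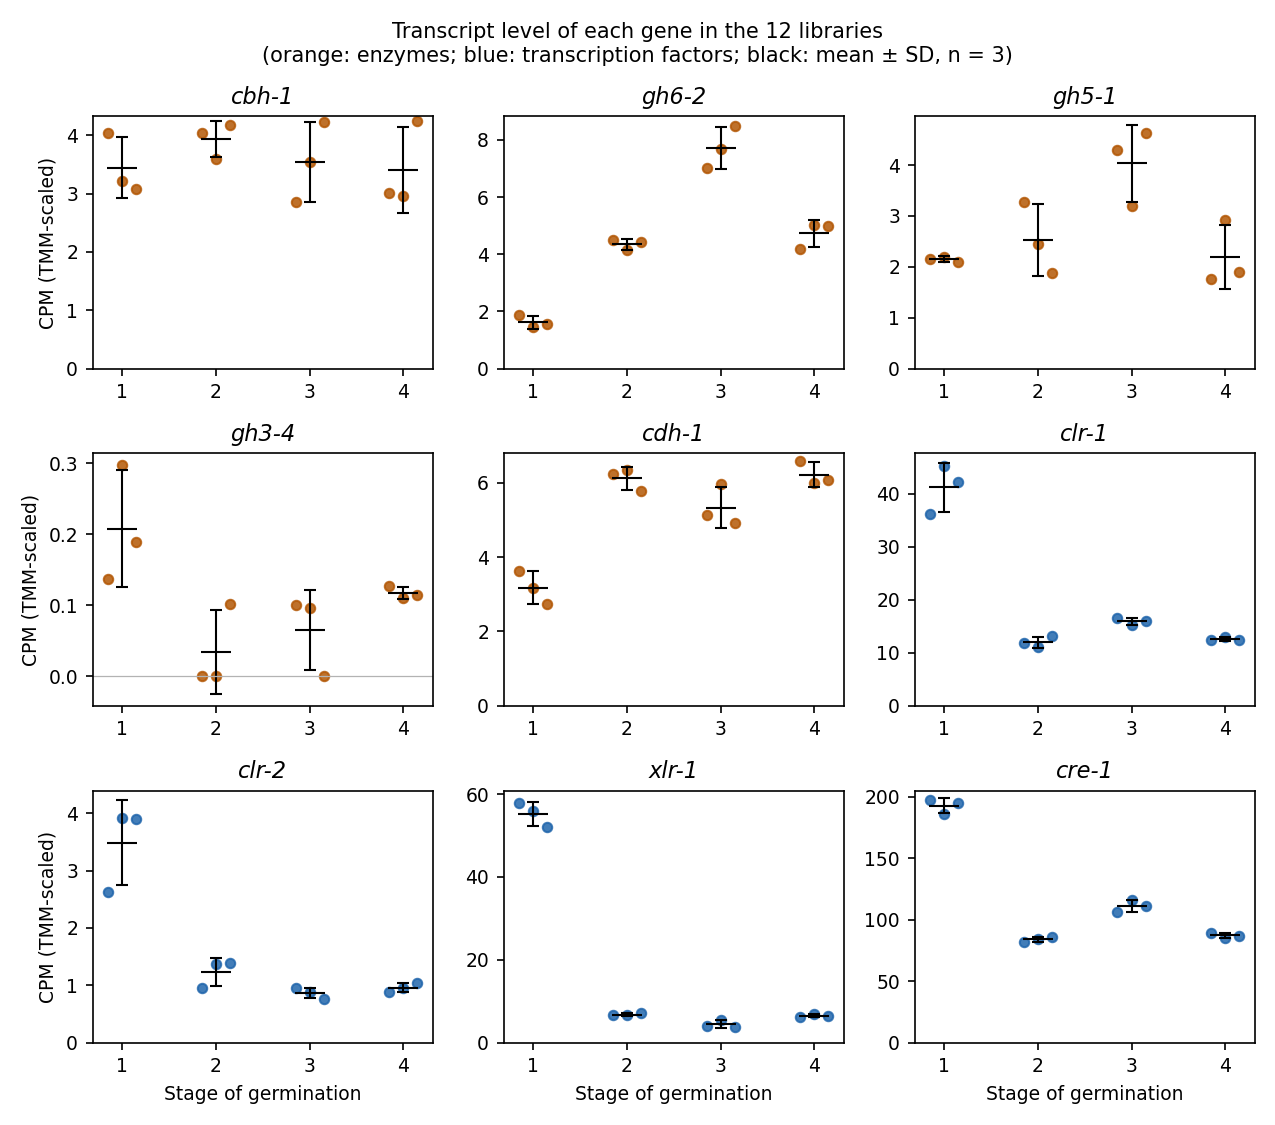
Level in CPM (vertical axis, scaled by TMM factors) of each of the 9 genes in the 12 libraries, by stage of germination (horizontal axis), with points for libraries and black bars for the mean ± SD of 3 libraries. The 4 transcription factors (blue) stand highest in stage 1, while gh6-2 and cdh-1 (orange) stand lowest there, and cbh-1 stays between 2.86 and 4.25 CPM throughout.

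The gene cbh-1 (NCU07340, chromosome IV, 4311049 to 4314145, NC12 assembly) encodes cellobiohydrolase I, the most abundant secreted cellulase of N. crassa on cellulose. It had 4.04, 3.21 and 3.07 CPM in stage 1 and 4.03, 3.59 and 4.18 CPM in stage 2. In stage 3 it had 2.86, 3.54 and 4.23 CPM, and in stage 4 it had 3.01, 2.96 and 4.25 CPM. The libraries of every stage overlapped with those of every other. The log2 change at stage 2 against stage 1 was 0.19 ± 0.18 (SE), with a 95% interval of -0.20 to 0.58 and an edgeR adjusted p of 0.344, and none of the 6 pairs of stages passed the threshold. Behind these levels stood between 134 and 298 counts per library.

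The gene gh6-2 (NCU09680, chromosome V, 858215 to 859731) encodes cellobiohydrolase II, which works from the other end of the cellulose chain. It had 1.88, 1.44 and 1.54 CPM in stage 1, 4.49, 4.14 and 4.44 CPM in stage 2, 7.02, 7.68 and 8.47 CPM in stage 3, and 4.20, 5.01 and 4.99 CPM in stage 4. Stage 3 lay above all other libraries and stage 1 below them, while stages 4 and 2 overlapped. At stage 2 it was 2.68-fold higher than in stage 1 (log2 change 1.42 ± 0.13, SE, edgeR adjusted p = 2.83e-07). Its log2 change was 0.83 ± 0.12 at stage 3 against stage 2 (edgeR adjusted p = 0.000161) and -0.71 ± 0.12 at stage 4 against stage 3 (0.000539). Per kilobase of its gene, gh6-2 stood at 0.965 ± 0.0556 times the level of cbh-1 in stage 1, 2.26 ± 0.0907 times in stage 2, 4.51 ± 0.468 times in stage 3 and 2.90 ± 0.532 times in stage 4 (SD, n = 3). Per kilobase the cellobiohydrolases were thus close to each other in fresh spores and gh6-2 was the higher in every germinating library. The nearness in fresh spores depends on the gene spans, 3097 bases for cbh-1 and 1517 for gh6-2. Before division by span their stage 1 means were 3.44 and 1.62 CPM.

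The gene gh5-1 (NCU00762, chromosome I, 7271711 to 7273785) encodes an endoglucanase. It had 2.16, 2.20 and 2.097 CPM in stage 1, 3.27, 2.44 and 1.87 CPM in stage 2, 4.29, 3.19 and 4.64 CPM in stage 3, and 1.77, 2.91 and 1.90 CPM in stage 4. Only stage 3 stood out, and it overlapped with stage 2, where replicate 1 lay above the lowest stage 3 library. Its log2 change was 0.69 ± 0.22 (SE) at stage 3 against stage 2 (edgeR adjusted p = 0.0268) and -0.90 ± 0.23 at stage 4 against stage 3 (0.00712). The rise at stage 3 did not pass when library totals replaced the TMM factors (adjusted p = 0.0980) or without stage 2 replicate 2, stage 2 replicate 3, stage 3 replicate 1 or stage 3 replicate 3 (0.0729 to 0.134). Against stage 1, gh5-1 was 1.88-fold higher in stage 3, with groups that did not overlap, whereas stage 2 and stage 4 differed from stage 1 by log2 changes of 0.22 and 0.01 that did not pass.

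The gene gh3-4 (NCU04952, chromosome IV, 846341 to 849048) encodes a beta-glucosidase that is secreted on cellulose. It had 10, 20 and 13 counts in stage 1, 0, 0 and 7 counts in stage 2, 7, 5 and 0 counts in stage 3, and 9, 5 and 6 counts in stage 4. In CPM this is 0.208 ± 0.0817 in stage 1, 0.0341 ± 0.0591 in stage 2, 0.0655 ± 0.0568 in stage 3 and 0.117 ± 0.00883 in stage 4 (SD, n = 3). A floor of 3 counts, between 0.0426 and 0.0620 CPM in the libraries concerned, was set for a count of 0. It takes each count as a separate sequenced fragment. Since 1 fragment can add more than 1 count here, the true limit is higher. Thus gh3-4 was not detected in 2 libraries of stage 2 and 1 library of stage 3. All 3 libraries of stage 4 held 5 to 9 counts, which may come from few fragments. With no filter on low counts (9651 genes tested) its log2 change at stage 2 against stage 1 was -2.41 ± 1.01 (SE) with an edgeR adjusted p of 0.0485, and its joint test over the stages did not pass (0.155). It met the filter in 10 fits without a single library, and the change at stage 2 passed in 8. Over all 10 fits the edgeR adjusted p ran from 0.00443 to 0.111. Those fits all kept stage 1 replicate 2 and stage 1 replicate 3, its highest counts, and without either it fell below the filter. They therefore cannot support a fall from stage 1. No direction is given for it here.

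The gene cdh-1 (NCU00206, chromosome III, 3004156 to 3008108) encodes cellobiose dehydrogenase. It had 3.63, 3.17 and 2.74 CPM in stage 1, 6.24, 6.35 and 5.77 CPM in stage 2, 5.12, 5.97 and 4.91 CPM in stage 3, and 6.60, 6.001 and 6.07 CPM in stage 4. Stage 1 lay below the other 9 libraries. At stage 2 it was 1.92-fold higher than in stage 1 (log2 change 0.94 ± 0.12, SE, edgeR adjusted p = 7.62e-06). The later steps did not pass, with log2 changes of -0.20 at stage 3 against stage 2 (adjusted p = 0.207) and 0.23 at stage 4 against stage 3 (0.154). Unlike for gh6-2, whose level was highest in stage 3, the stage 3 libraries of cdh-1 lay among or below those of stage 2, but a difference between these genes was not tested.

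Among the transcription factors, clr-1 (NCU07705, chromosome IV, 2149157 to 2154036) encodes the activator that answers to cellobiose and drives clr-2. It had 36.1, 45.3 and 42.3 CPM in stage 1, 11.8, 11.1 and 13.1 CPM in stage 2, 16.6, 15.3 and 16.1 CPM in stage 3, and 12.4, 12.9 and 12.4 CPM in stage 4. Stage 1 was highest, stage 3 came next, and stages 4 and 2 overlapped. At stage 2 clr-1 fell to 0.292 times its stage 1 level (log2 change -1.78 ± 0.09, SE, edgeR adjusted p = 4.62e-10). It was higher in stage 3 than in stage 2 by 0.41 ± 0.09 on the log2 scale (adjusted p = 0.00280) and changed by -0.34 ± 0.09 at stage 4 against stage 3 (0.00847). With library totals these later steps did not pass (0.178 and 0.368), nor did the last without stage 4 replicate 1 or stage 4 replicate 3 (0.0527 and 0.0563).

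The gene clr-2 (NCU08042, chromosome IV, 4001190 to 4004643) encodes the activator that acts directly on most cellulase genes. It had 2.63, 3.91 and 3.90 CPM in stage 1, 0.951, 1.37 and 1.39 CPM in stage 2, 0.947, 0.884 and 0.766 CPM in stage 3, and 0.890, 0.949 and 1.05 CPM in stage 4. Its counts in single libraries were 43 to 95 after stage 1, against 191 to 268 in stage 1, and no library of the later stages reached any of stage 1. The log2 change at stage 2 against stage 1 was -1.48 ± 0.20 (SE), with an edgeR adjusted p of 1.39e-05. At stage 3 against stage 2 it was -0.52 ± 0.22, which did not pass (0.0735), although the groups did not overlap, and which passed without stage 1 replicate 1 or stage 2 replicate 1 (0.0319 and 0.0281). Stage 4 against stage 3 gave 0.15 ± 0.22 (0.636).

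The gene xlr-1 (NCU06971, chromosome IV, 4706112 to 4709560) encodes the activator of xylan-degrading enzymes. It had 57.8, 55.8 and 52.0 CPM in stage 1, 6.66, 6.67 and 7.12 CPM in stage 2, 4.18, 5.53 and 3.80 CPM in stage 3, and 6.30, 6.84 and 6.57 CPM in stage 4. It showed the steepest fall of the 8 genes tested at stage 2, to 0.124 times its stage 1 level (log2 change -3.02 ± 0.11, SE, edgeR adjusted p = 2.07e-11). Only 3.84% of all genes tested had a lower change in that comparison. At stage 3 it was lower again than in stage 2 by a log2 change of -0.61 ± 0.11 (0.000981) and at stage 4 it was higher than in stage 3 by 0.55 ± 0.11 (0.00199). This is the opposite course to that of clr-1 and cre-1 over the same steps.

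The gene cre-1 (NCU08807, chromosome IV, 5176440 to 5178927) encodes the repressor of carbon catabolite repression. It had 198, 186 and 195 CPM in stage 1, 82.1, 84.2 and 86.2 CPM in stage 2, 106, 116 and 111 CPM in stage 3, and 89.4, 85.6 and 87.1 CPM in stage 4. Stage 1 was highest and stage 3 next, with no overlap, and stages 4 and 2 overlapped. At stage 2 it fell to 0.436 times its stage 1 level (log2 change -1.20 ± 0.05, SE, edgeR adjusted p = 1.38e-10). It was higher in stage 3 than in stage 2 by 0.40 ± 0.05 on the log2 scale (6.44e-05) and changed by -0.35 ± 0.05 at stage 4 against stage 3 (0.000209). As for clr-1, neither of the later steps passed with library totals (0.190 and 0.362), under which the median change of all genes shifted by -0.10 at stage 3 against stage 2 and by 0.13 at stage 4 against stage 3.

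At stage 2 against stage 1, 6 of the 8 genes tested passed, 2 higher and 4 lower, a share close to the 77.3% of all genes tested that did (39.4% higher, 37.9% lower). At stage 3 against stage 2, 5 of 8 passed, 4 higher and 1 lower, beside 39.0% of all genes (20.8% higher, 18.2% lower). At stage 4 against stage 3, 5 of 8 passed as well, 1 higher and 4 lower, beside 39.0% (18.2% higher, 20.8% lower). With library totals these last counts were 2 and 3, beside 1499 and 1704 of all genes. None of the 8 genes changed by at least 2-fold in either step, whereas 494 and 498 of all genes passed at that size. Leaving out stage 3 replicate 2, the library with the highest share of ribosomal RNA, changed no call of a member in these steps. At stage 2 against stage 1, 2 of the 4 enzymes tested were higher and 2 (cbh-1 and gh5-1) did not pass, and 4 of 4 transcription factors were lower. A difference between these groups was not tested. The median log2 change was -1.63 over the 4 transcription factors and 0.58 over the 4 enzymes tested, where it was 0.01 over all genes tested.

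Over the whole course, 6 of 8 genes differed between stage 4 and stage 1 (gh6-2 and cdh-1 higher, the 4 transcription factors lower), beside 77.7% of all genes (39.5% higher, 38.2% lower). The log2 changes at stage 4 against stage 1 were 1.54 for gh6-2, 0.97 for cdh-1, -1.71 for clr-1, -1.86 for clr-2, -3.07 for xlr-1 and -1.14 for cre-1. Between stage 3 and stage 1, 7 of 8 differed, 3 higher and 4 lower, beside 78.6% of all genes (40.8% higher, 37.8% lower), and gh6-2 reached its widest change there, 4.75-fold higher. Between stage 4 and stage 2, edgeR called 0 of the 8 genes and 0% of all genes tested. At an unadjusted edgeR p under 0.05 there were 0 of the 8 genes, the lowest p being 0.110 for clr-2, and 136 genes in all (1.63%). That share is below what this threshold alone would let through if no gene differed, so the 136 genes are no evidence of differences. DESeq2 called 1 gene there and none of the 8. The widest interval for a member, that of gh5-1, reached from -0.71 to 0.30 on the log2 scale. That of cre-1 reached from -0.06 to 0.17. Changes of a gene within its bounds are not excluded. The intervals are not adjusted for the number of genes tested and set no limit of detection. The marker con-8 had an interval of -0.83 to -0.22 in this comparison and was not called.

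**Figure D2:**
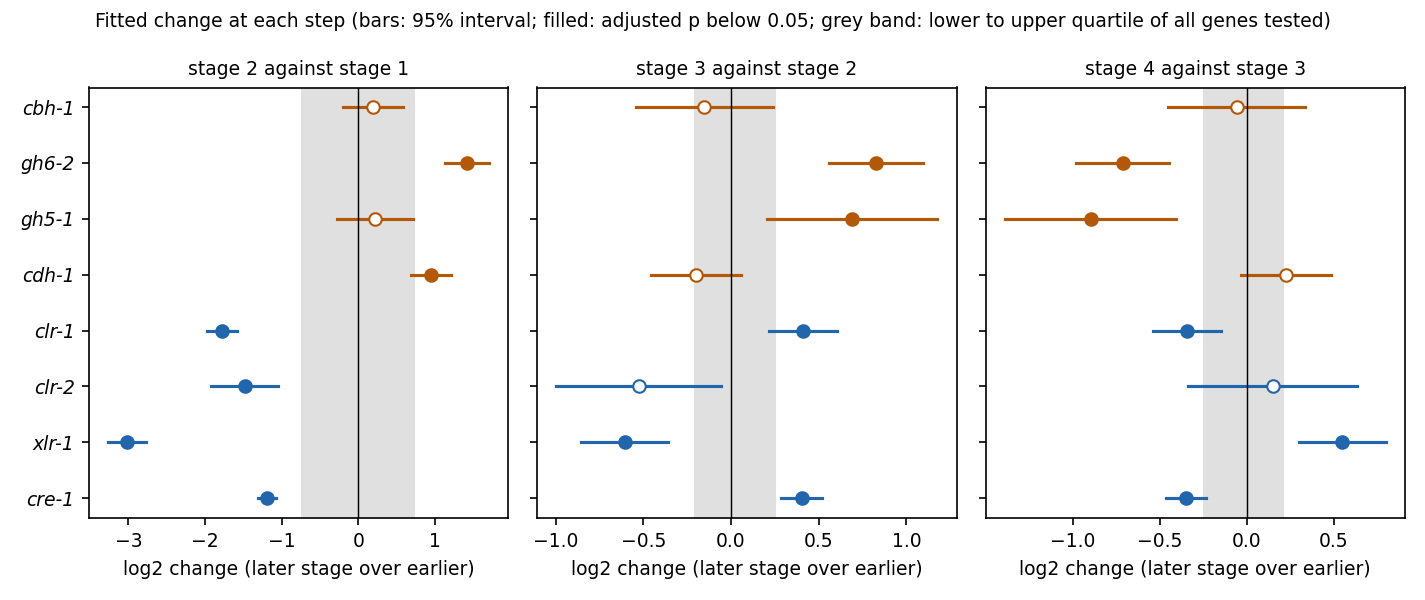
Fitted log2 change (horizontal axis, later stage over earlier) of the 8 genes tested at each of the 3 steps, with 95% intervals, points filled where the edgeR adjusted p was below 0.05, and a grey band from the lower to the upper quartile of all genes tested. At stage 2 against stage 1 the 4 transcription factors lie between -3.02 and -1.20, left of the band, and gh6-2 and cdh-1 lie right of it at 1.42 and 0.94.

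Levels can be set beside each other between genes only per length, here as CPM per kilobase of the annotated gene span, which includes introns. On this scale cre-1 stood at percentile 89.1 of the genes tested in stage 1, 79.6 in stage 2, 83.9 in stage 3 and 80.5 in stage 4. For xlr-1 the percentiles were 63.0, 23.2, 19.6 and 22.9 and for clr-1 they were 47.5, 25.3, 28.3 and 25.97 in the same order of stages. The activator gene clr-2 stood at 17.0, 10.4, 8.19 and 9.05, below clr-1 in every stage. Of the 9 genes, 2 (cre-1 and xlr-1) were above the median of all genes tested in stage 1. The 4 enzyme genes other than gh3-4 lay within the percentiles 15.1 to 33.8 throughout, and gh3-4 lay between 0.720 and 1.82. In stage 1 cbh-1, gh6-2, gh5-1 and clr-2 had 1.11 ± 0.169, 1.07 ± 0.152, 1.04 ± 0.0256 and 1.01 ± 0.214 CPM per kilobase (SD, n = 3), and their libraries overlapped.

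**Figure D3:**
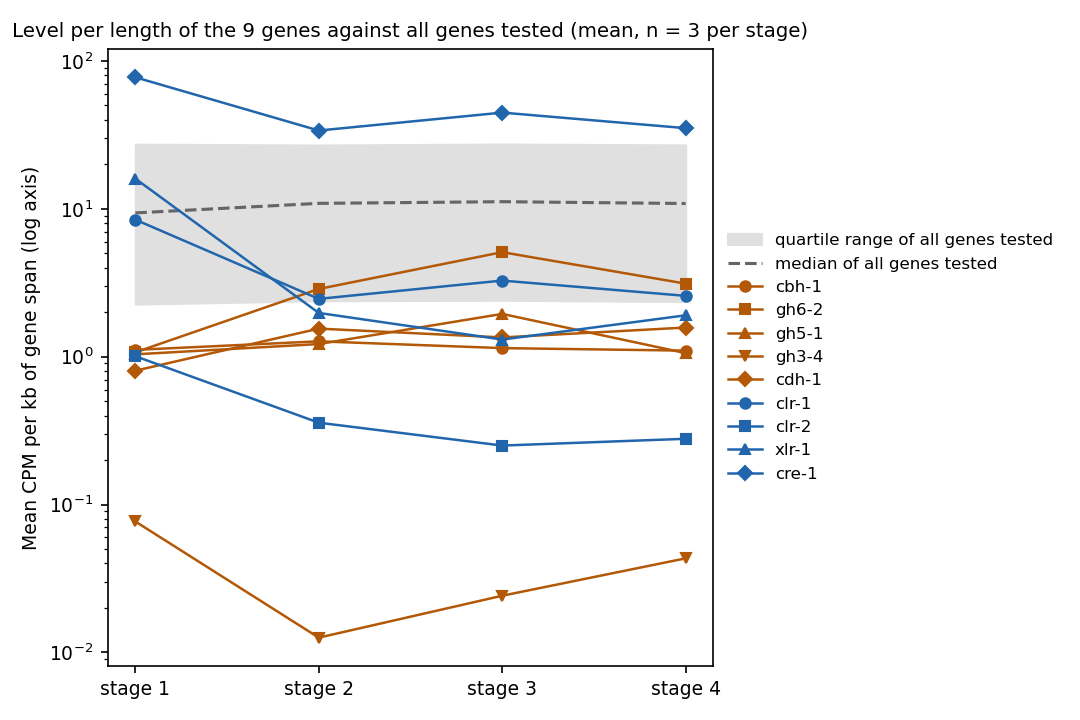
Mean level of the 9 genes in CPM per kilobase of gene span (vertical axis, logarithmic) at each stage (horizontal axis, n = 3 per stage), against the median (dashed) and the range between the quartiles (grey) of all genes tested. The gene cre-1 is above the grey band at every stage, xlr-1 and clr-1 leave the region of the median after stage 1, and gh3-4 is lowest throughout at 0.0126 to 0.0769.

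The transcript level of the repressor gene relative to the activator genes xlr-1 and clr-1 was higher after stage 1. These ratios were not tested, and the ratio to clr-2 was not taken. Per kilobase, cre-1 stood at 4.85 ± 0.310 times the level of xlr-1 in stage 1, 17.1 ± 0.360 times in stage 2, 35.0 ± 5.71 times in stage 3 and 18.5 ± 1.16 times in stage 4 (SD, n = 3). Stage 1 lay below and stage 3 above the other libraries. The same ratio to clr-1 was 9.28 ± 1.36 in stage 1 and 13.8 ± 1.05, 13.7 ± 1.21 and 13.6 ± 0.576 in stages 2, 3 and 4, which overlapped. Being taken within a library, these ratios do not depend on its scaling.

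The other genes of plant cell wall breakdown did not move as a block at stage 2. Beyond the 5 enzymes, 33 enzyme genes were listed by ID, of which 6 have no symbol in RefSeq and stand in their list by ID alone. Of the 25 tested, 11 were higher and 6 lower in stage 2 than in stage 1 (44% and 24%, beside 39.4% and 37.9% of all genes tested), with a median log2 change of 0.26 against 0.01 over all genes tested. At stage 3 against stage 2, 6 were higher and 3 lower (24% and 12%, beside 20.8% and 18.2%), and at stage 4 against stage 3, 4 were higher and 4 lower (16% each, beside 18.2% and 20.8%). These shares lay near those of all genes in the later steps. Among the other cellulases, gh6-3 and gh7-2 were higher in stage 2 (log2 changes of 0.71 and 0.26, edgeR adjusted p of 0.00117 and 0.0329) and gh7-1 lower (-1.29, 5.47e-05), with 1 of 4 not passing. The span of gh6-3 overlaps that of another gene by 82 bases, which had 45 counts over all libraries. The spans of NCU07974 and NCU09652 overlap those of other genes by 58 and 174 bases, and these other genes had 32010 and 1835 counts, so that the values of NCU07974 and NCU09652 are less certain.

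The widest rises were among the LPMO genes. The gene gh61-2 (NCU07760) averaged 66.9 ± 10.5 CPM in stage 2 and 1.04 ± 0.195 CPM in stage 1 (SD, n = 3). This is a 64.2-fold difference, or 6.005 ± 0.17 (SE) on the log2 scale, with an adjusted p of 1.45e-12. The gene gh61-7 (NCU00836) averaged 10.8 ± 0.448 CPM in stage 2 and 0.201 ± 0.110 CPM in stage 1, with a log2 change of 5.73 ± 0.22 (2.16e-11). In contrast gh61-5 was lower, at 0.386 ± 0.106 CPM in stage 2 and 2.42 ± 0.306 CPM in stage 1 (log2 change -2.65, 5.79e-06). The most abundant gene of the list, NCU07974, which has no symbol in RefSeq, averaged 403 ± 27.5 CPM in stage 2 and 29.8 ± 1.42 CPM in stage 1, a 13.5-fold difference (edgeR adjusted p = 5.67e-13). It, gh61-9 (5.96-fold higher, edgeR adjusted p = 2.44e-10), NCU02344 (3.25-fold higher, 3.24e-06) and gh61-3 (1.52-fold higher, 0.000135) were named after their values were seen. Of the 14 LPMO genes listed, 10 were tested, and 6 were higher (60%, beside 39.4% of all genes tested) and 1 lower (10%, beside 37.9%). The cellulose-active LPMOs receive electrons from cellobiose dehydrogenase, and the 1.92-fold rise of cdh-1 stands beside these values, whose relation to it was not tested.

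Of the 4 beta-glucosidase genes, gh1-1, which encodes an intracellular enzyme, was higher in stage 2 by 1.45 on the log2 scale (edgeR adjusted p = 3.11e-06), and gh3-3 and gh3-6 were lower (-3.62 and -1.40, adjusted p of 2.27e-10 and 0.000129). The gene gh3-3 had 1.74 ± 0.296 CPM in stage 2 and 21.4 ± 2.07 CPM in stage 1 (SD, n = 3), and so stood far above gh3-4 in both. Of the 9 hemicellulase genes listed, 7 were tested, and 2 were higher and 2 lower (28.6% each, beside 39.4% and 37.9% of all genes tested). Those higher were NCU01900 (0.99, edgeR adjusted p = 0.000320) and NCU02343 (0.39, 0.0191), and those lower were gh3-7 (-2.22, 9.45e-05) and NCU09652 (-1.99, 8.59e-05). The cellodextrin transporter gene cdt-1, whose product carries cellobiose into the cell, was higher in stage 2 by 0.99 ± 0.10 (SE) on the log2 scale (4.92e-07), and cdt-2 did not pass (-0.78, 0.0741). Among the other regulators col-26, which takes part in glucose sensing and starch use, was lower by -1.40 ± 0.08 (9.00e-10), at 109 ± 4.84 CPM in stage 2 and 289 ± 29.7 CPM in stage 1, and vib-1 did not pass (0.16, 0.412). Of the 4 regulator genes listed with no symbol, NCU09033 and NCU05846 were higher (0.80 and 0.42, adjusted p of 4.45e-07 and 0.00285), NCU05414 was lower (-2.54, 6.98e-08) and NCU01856 did not pass (0.08, 0.301). With clr-1, clr-2, xlr-1 and cre-1, 6 of the 10 regulator genes were lower and 2 higher (60% and 20%, beside 37.9% and 39.4% of all genes tested).

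**Figure D4:**
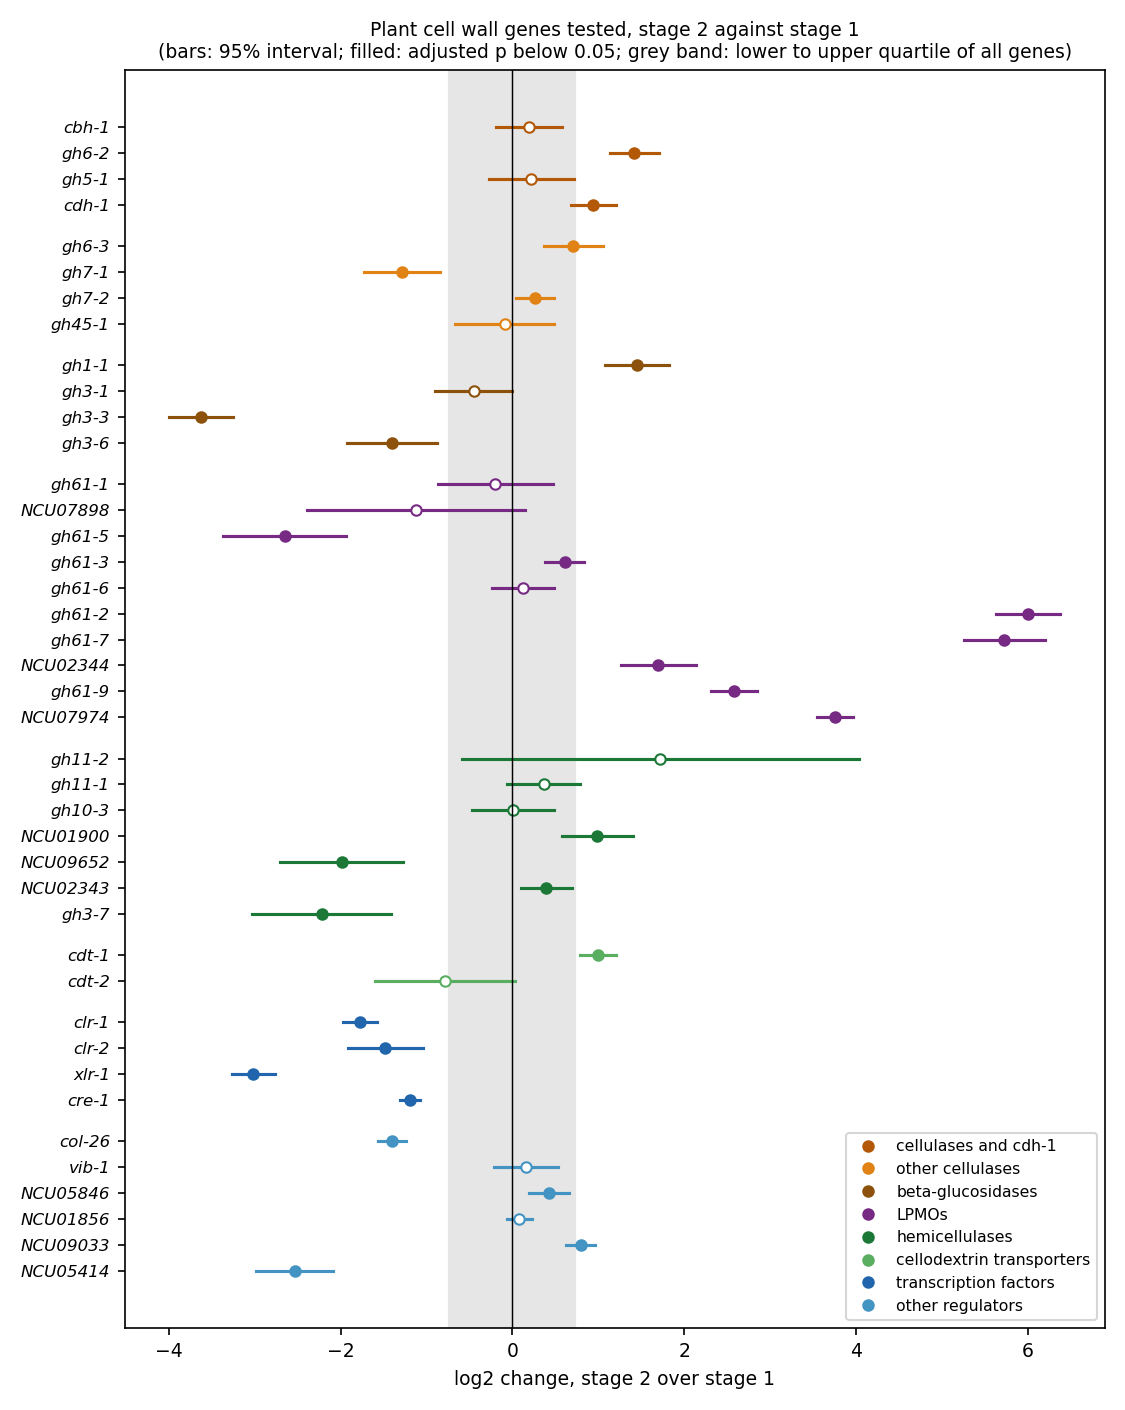
Fitted log2 change (horizontal axis, stage 2 over stage 1) of the plant cell wall genes that were tested, by list, with the gene ID where RefSeq has no symbol, with 95% intervals, points filled where the edgeR adjusted p was below 0.05 and a grey band between the quartiles of all genes. The LPMO genes gh61-2 and gh61-7 stand furthest right at 6.005 and 5.73, with NCU07974 next at 3.76. The 4 transcription factors clr-1, clr-2, xlr-1 and cre-1 lie between -3.02 and -1.20. Of the 6 other regulators, 2 were higher, 2 were lower and 2 did not pass.

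The genes whose course was most like that of 3 members are given as a description, by Pearson's r of log2(CPM + 1) over the 12 libraries, which share the contrast of stage 1 with the rest. For clr-1 they were NCU06465, NCU06882 and NCU03184, with r of 0.997, 0.996 and 0.995, and for cre-1 they were NCU02888, NCU16624 and NCU09663, with r of 0.998, 0.996 and 0.996. Likeness of this degree was common, since the 1000th gene in the order still had an r of 0.941 with clr-1 and 0.926 with cre-1. For cbh-1, whose levels differed between replicates as much as between stages, the best matches were NCU00857, rid-1 and NCU01010, with r of 0.796, 0.776 and 0.750.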

How the data were processed

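The deposited count table holds expected counts per gene, whole numbers that the authors derived from read coverage without normalization. Per the labels and the methods of the study, stranded paired reads of oligo(dT)-purified RNA were trimmed, aligned to the OR74A genome with HISAT2 2.1.0 and counted with StringTie 1.3.3b and its table script, whose read length setting is not given in the sources used here. A fragment can therefore add more than 1 count (the value 3 was the most frequent low count). The floor of 3 counts takes each count as a separate fragment and is therefore too low. It covers counting error only, whereas the intervals of the fitted changes include the spread between replicates. A second deposited table holds the authors' own stage comparison (ratios to the lowest stage of a gene, their intervals and fit diagnostics) and was not used. Names and coordinates came from the RefSeq table of assembly NC12, which matched 10590 of 10592 IDs. Transcript lengths and sequences were not used here.

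Counts, rounded, were filtered (filterByExpr, minimum count 10, minimum total 15), scaled by TMM and fitted with edgeR 4.0.16 (R 4.3.3, limma 3.58.1) with 1 coefficient per stage over all 12 libraries, and the biological coefficient of variation was 10.8%. F tests were run jointly and for the 6 pairs of stages, each adjusted by the Benjamini-Hochberg method. TMM factors ranged from 0.730 to 1.09. Standard errors were obtained by dividing a log2 change by the root of its F statistic. The tests were checked on simulated data. Alternatives were DESeq2 1.42.0 and its size factors, library totals, removal of 212 ribosomal RNA genes, no filter, a replicate block, a 2-fold requirement, leaving out each library and, chosen after seeing the data, fits without stage 4 or stage 2. The members and gene lists were chosen with earlier results of these data known. All 9 members are named. Of the wider lists the rule names the 2 largest rises and the 2 largest falls past the threshold at stage 2 against stage 1 per list. The genes cdt-2, vib-1, NCU01856, NCU07974, NCU02344, gh61-9 and gh61-3 were added to it after their values were seen. Of 42 wider IDs, 11 have no symbol in RefSeq and were kept in their lists by ID. Figures were drawn with matplotlib 3.10.9 in Python 3.11.15.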

Additional observations from a re-analysis of the deposited data

How the results depend on the processing

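Of 48 comparisons of a member between 2 stages, 29 passed the threshold. Of all genes tested, 77.3% passed for stage 2 against 1, 39.0% for 3 against 2 and 39.0% for 4 against 3. The share was 77.7% for 4 against 1, 0% for 4 against 2 and 78.6% for 3 against 1. All 29 passed in the same direction under DESeq2, the size factors of DESeq2, removal of ribosomal RNA genes, no filter on low counts and the replicate block, which also left the other 19 uncalled. Across the pairs of stages, the deviations of samples with the same replicate number were at most weakly correlated (r from -0.32 to 0.22). Between stage 4 and stage 2, replicates 2 and 3 matched best with their own number and replicate 1 did not. The same pairs, 3 with 3 and 2 with 2, were closest by the chi-square statistic. What the replicate block pairs was not tested. Under it the number of members called was 6, 5, 5, 6, 0 and 7 for stage 2 against 1, 3 against 2, 4 against 3, 4 against 1, 4 against 2 and 3 against 1. Over all genes it was 6395, 3128, 3168, 6446, 0 and 6494 in the same order. With library totals, 2 members were called at stage 3 against stage 2 and 3 at stage 4 against stage 3. Requiring at least 2-fold gave 0 members in each of these steps and 4 at stage 3 against stage 1. Over all genes, 2-fold gave 3638 for any stage, 2982, 494, 498, 3010 and 3112 for stage 2 against 1, 3 against 2, 4 against 3, 4 against 1 and 3 against 1, and library totals gave 1499 and 1704 for 3 against 2 and 4 against 3, and 1 gene for 4 against 2. The cause was not tested. The fits without stage 4 or stage 2, chosen after seeing the data, changed no call of a member.

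Leaving out a library gave 7 to 8 members for any stage, 6 to 7 for stage 2 against 1, 4 to 6 for 3 against 2 and 4 to 5 for 4 against 3. With all 12 libraries the share over all genes tested was 84.3%, 77.3%, 39.0% and 39.0% in that order. The member counts include gh3-4 in the fits where it met the filter. Leaving out a library ended the calls named above for gh5-1 and clr-1. The signs that turned belong to changes near 0 that did not pass. For cbh-1 they were 0.083 with library totals at stage 4 against 3, 0.045 with library totals at 4 against 1, and -0.0250, -0.038 and -0.0250 at 3 against 1 with the size factors, library totals and DESeq2. For gh5-1 at 4 against 1 they were -0.032 with the size factors and -0.029 with DESeq2. Without single libraries the log2 change of cbh-1 ran from -0.20 to 0.14 at stage 4 against 3, from -0.20 to 0.13 at 4 against 1 and from -0.15 to 0.20 at 3 against 1. That of gh5-1 ran from -0.21 to 0.18 at 4 against 1 and from -0.45 to 0.0080 at 4 against 2, and that of cdh-1 from -0.021 to 0.055 at 4 against 2. Levels per length could be given for gene spans only, so that the planned choice between transcript length and span was not run. With library totals 2 members again lay above the median in stage 1. Depth limits gh3-4, with at most 20 counts a library.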
